A study of Homo sapiens with 6 samples.

Results

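The 45 genes described here encode the proteins that build autophagosomes, capture their cargo and digest it in lysosomes. They were chosen by symbol, as genes of autophagy initiation, of the conjugation machinery, of cargo receptors and of lysosomes, and all 45 were found among the 26255 genes listed for each sample. They fall into 8 groups by role. The ULK1 initiation complex has 5 genes, the class III PI3K complex 6, phagophore expansion 5, the conjugation machinery 10, the ATG8 proteins 5, the cargo receptors 5, the MiT transcription factors 2 and the lysosomal proteins 7. Their mean levels over all samples ran from 1.65 FPKM for OPTN to 313 FPKM for GABARAP. FPKM is a fragment count normalized to transcript length and to the size of the library.

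RNA-seq was performed on 22RV1, an established line of castration-resistant prostate cancer (CRPC) cells. One group of 3 samples was given the vehicle DMSO and the other group of 3 samples was given 10 nM bruceantin (BCT), a quassinoid from plants that was studied as an inhibitor of the chaperone HSP90. Exposure lasted 24 h in both groups, and all cells grew in RPMI medium with 10% FBS. The data come from a single cell line, a single dose and a single time, and they measure RNA, not protein or the flow of cargo through autophagy.

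Autophagy starts when the ULK1 kinase complex activates the class III PI3K complex, whose lipid product recruits further proteins to a growing membrane, the phagophore. A conjugation machinery that resembles ubiquitination then attaches ATG8 proteins (the LC3 and GABARAP families) to that membrane, and cargo receptors such as p62 (SQSTM1) tie ubiquitinated cargo to them. The closed autophagosome fuses with the lysosome, where acid hydrolases degrade the content. The transcription factors TFEB and TFE3 of the MiT family bind an E-box, CACGTG, within a longer element found near the start of many lysosomal genes, and they are known to drive lysosome biogenesis.

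Because of that element, the promoter windows of the genes were searched for CACGTG. The windows hold 250 bases before and 50 bases after the start site and come from RefSeq on GRCh38.p14, whereas the deposited files use hg19. Windows were matched for 39 of the 45 genes. Those without one were ATG4D, LAMP2, UVRAG, CTSB, MAP1LC3A and RB1CC1. CACGTG reads the same on both strands and was present in 5 of the 39 windows (12.8%), the same share as in the windows of all genes tested here (12.8%) and above that of all windows in the table (8.77%). These 5 were the windows of LAMP1, CTSD, MCOLN1, ATG14 and ATG3, so that 3 of the 5 lysosomal proteins with a window held it against 2 of the other 34. The stretches around the E-boxes are shown because these windows carry the element that TFEB and TFE3 are known to bind, and because LAMP1 held more copies than any other gene of the table. Capitals mark CACGTG, and each stretch is written 5′ to 3′ on the strand of its gene.
LAMP1 (chr13:113297007-113297263, plus strand): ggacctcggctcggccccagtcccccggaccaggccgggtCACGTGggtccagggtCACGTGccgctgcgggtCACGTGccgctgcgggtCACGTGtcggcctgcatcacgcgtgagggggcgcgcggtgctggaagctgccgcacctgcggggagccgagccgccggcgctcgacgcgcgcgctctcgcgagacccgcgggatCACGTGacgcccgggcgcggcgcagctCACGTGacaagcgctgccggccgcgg
CTSD (chr11:1763944-1764014, minus strand): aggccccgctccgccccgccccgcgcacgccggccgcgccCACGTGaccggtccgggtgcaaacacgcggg
MCOLN1 (chr19:7522543-7522640, plus strand): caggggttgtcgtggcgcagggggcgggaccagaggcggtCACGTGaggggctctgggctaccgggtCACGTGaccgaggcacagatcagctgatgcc
ATG14 (chr14:55411821-55411891, minus strand): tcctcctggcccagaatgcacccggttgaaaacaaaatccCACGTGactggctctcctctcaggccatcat
ATG3 (chr3:112561938-112562020, minus strand): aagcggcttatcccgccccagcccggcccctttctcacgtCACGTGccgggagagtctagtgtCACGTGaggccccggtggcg

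The LAMP1 window held 6 copies of CACGTG, and 1 of the 27305 windows in the table held 5 or more. MCOLN1 and ATG3 each held 2 copies, as 216 windows (0.791%) did at least, and CTSD and ATG14 held 1. In all 5 genes at least 1 copy was preceded by T on one of the strands (TCACGTG, a longer form that contains CACGTG), which 7.37% of the windows of tested genes had. TGATGNAA, the composite element of C/EBP and ATF factors, was in none of the 39 windows on either strand and in 2.49% of the windows of tested genes. These matches describe letters in a window and not binding.

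A gene was tested if its mean over the 6 samples was at least 1 FPKM, which 12729 genes and all 45 members met. OPTN met it through its BCT values, since its DMSO mean was 0.732 FPKM, so its higher value with BCT was in part a condition for being tested. Differences were taken on log2(FPKM + 0.1), a scale that understates changes at low levels, and limma gave p-values that were adjusted by the Benjamini-Hochberg method. Calls of higher or lower expression in BCT-treated cells required a log2 fold change beyond 0.85 in either direction together with an FDR below 0.05, and "rose" and "fell" are used below for called genes alone. Of all tested genes 31.6% were called, 13.9% higher and 17.8% lower, and 82.1% passed the FDR on its own, so the fold change decided most calls.

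As deposited, and relative to the median of the tested genes, several autophagy genes were higher and several lysosomal genes lower in BCT-treated cells. Of the 38 autophagy genes, 7 rose (SQSTM1, GABARAPL1, OPTN, TFE3, ATG101, UVRAG and AMBRA1) and 1 fell (WIPI1), with a median log2 fold change of 0.36. These were 18.4% and 2.63%, against 13.9% and 17.8% of all tested genes. All BCT samples lay above all DMSO samples in 21 of the 38 and below them in 11. Of the 7 lysosomal proteins, 3 fell (CTSD, LAMP1 and CTSB) and 0 rose in limma, with a median of -0.81. The share that fell was 42.9%, against 17.8% of all tested genes. At an unadjusted limma p below 0.05 all 7 were lower and 0 higher. That cutoff separates little here, since 82.1% of all tested genes passed even the FDR. Over all 45 genes, 7 were called higher (15.6% against the 13.9% of all tested genes) and 4 lower (8.89% against 17.8%). The median was 0.12 against -0.04 for all tested genes. All 3 BCT samples lay above all 3 DMSO samples in 21 genes (46.7%, against 41% of the tested genes) and below them in 18 (40%, against 44.3%), and the groups overlapped in the other 6. Such separation was common in this experiment and held for 85.3% of the tested genes.

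**Figure D1:**
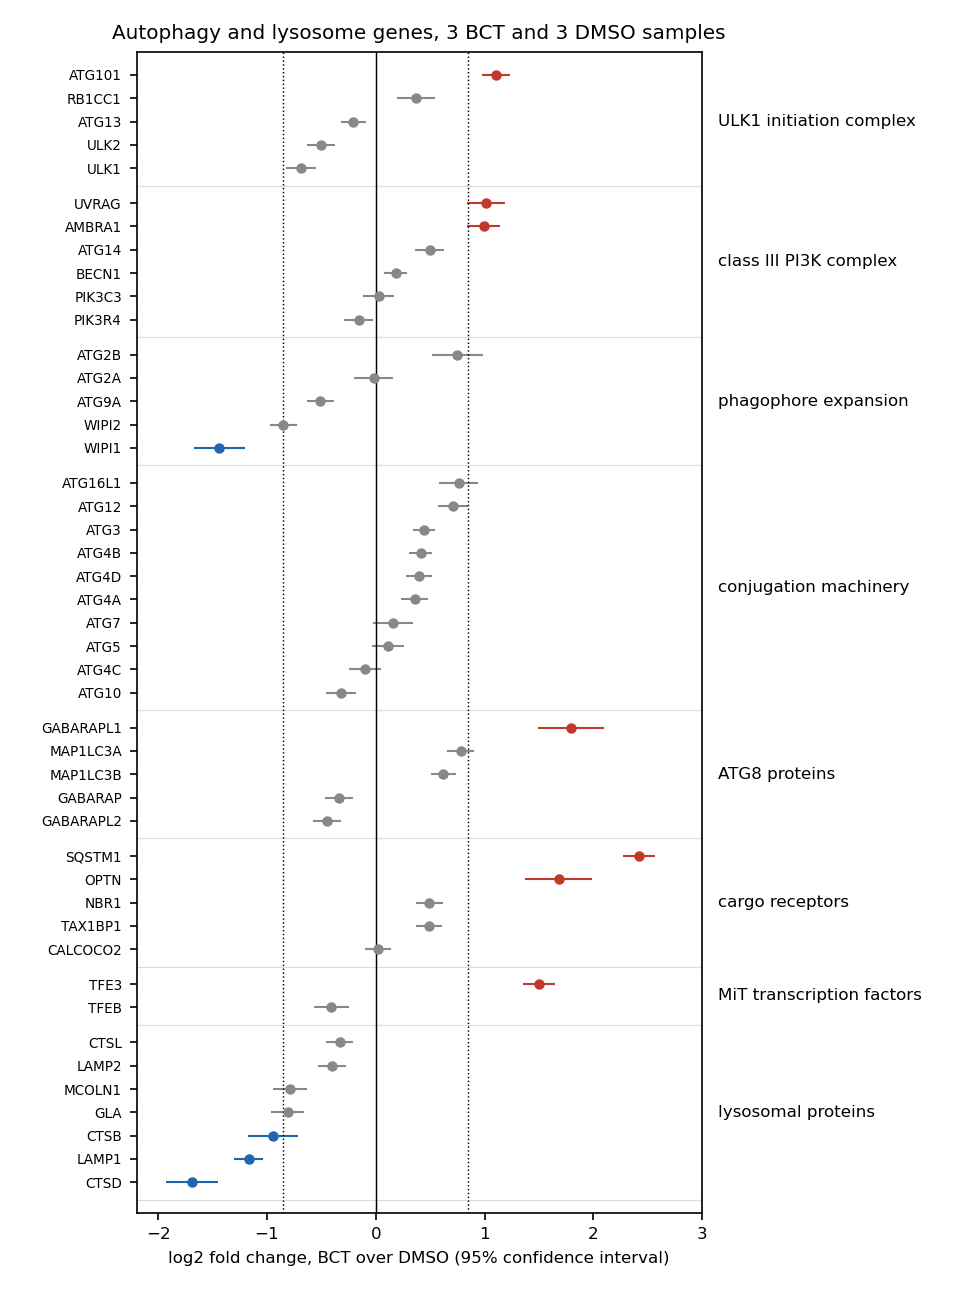
Log2 fold change of the 45 genes between 3 BCT and 3 DMSO samples, ordered by role, with 95% confidence intervals from limma; dotted lines mark the threshold of 0.85 and color marks genes called higher (red) or lower (blue). In the deposited values the 7 lysosomal proteins all lie left of 0, from -1.69 for CTSD to -0.33 for CTSL (LAMP2 and CTSL turn to 0.36 and 0.43 at equal FPKM sums), and the 5 cargo receptors lie at or right of 0, up to 2.42 for SQSTM1.

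Total FPKM per sample ran from 1169650 to 1572320 in the DMSO group and from 757534 to 799838 in the BCT group, and the small RNA gene MIR6087 held 43.5% to 55.3% of these totals in DMSO samples and 31.7% to 32.5% in BCT samples. When totals were made equal, the middle log2 fold change over the tested genes moved from -0.04 to 0.72, and to 0.35 if MIR6087 was left out of the totals. Under these scalings 23 and 15 of the 45 genes were called higher and 1 and 2 lower. Of all 12729 tested genes, 5609 and 3389 were called higher and 667 and 1226 lower, so most of the added calls went with the shift of all genes. Relative to the median of all tested genes, the lysosomal proteins stayed at a median of -0.77, -0.76 and -0.77 and the cargo receptors at 0.53, 0.54 and 0.53 as deposited, at equal sums and at equal sums without MIR6087. A factor common to a whole sample shifts every gene alike, so these relative values could hardly move. The number of reads behind a gene is unknown, and the lowest values put the depth relative to DMSO replicate 1 at 0.877 for the other DMSO samples and at 1.05 to 1.13 for the BCT samples. In bulk RNA, fewer cells of a kind and less RNA per cell cannot be told apart.

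BCT replicate 1 stood closer to the DMSO samples than BCT replicates 2 and 3 did, with a mean correlation across genes with DMSO of 0.893 against 0.853 and 0.854. It was also the BCT sample nearest to DMSO in 32 of the 39 genes whose groups did not overlap and in 11 of the 11 called genes, as in 7993 of 10854 such genes overall. All 9 luminal prostate markers were detected, among them KRT18 at 333 to 341 FPKM with DMSO and 1065 to 1148 with BCT. The 3 basal, 3 endothelial and 4 leukocyte markers all stayed at or below 0.387 FPKM. Of 4 stromal markers only COL1A1 passed 1 FPKM, at 1.23 to 1.55 with DMSO and 5.04 to 6.31 with BCT.

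The ULK1 complex receives the signals of nutrient and energy sensors. ATG101, which stabilizes ATG13 in the complex (chromosome 12, 52463030 to 52471279 on GRCh37), was at 55.9, 52.9 and 55.5 FPKM in DMSO replicates 1, 2 and 3 and at 112, 125 and 117 FPKM in BCT replicates 1, 2 and 3. Every BCT sample was at more than the double of any DMSO sample. ATG101 rose 2.16-fold (log2 fold change 1.11, standard error 0.06, limma adjusted p = 9.9e-07). The kinase gene ULK1 itself was at 16.8, 17.6 and 17.7 FPKM in DMSO samples and at 11.4, 10.5 and 10.3 with BCT. Its groups were also apart, in the other direction, but its log2 fold change of -0.69 (standard error 0.06) did not reach the threshold and turned to 0.08 at equal FPKM sums. The related kinase gene ULK2 had a log2 fold change of -0.50 and the scaffold gene ATG13 of -0.21, which were 0.26 and 0.56 at equal sums. RB1CC1, which encodes the scaffold FIP200, was at 0.37 and was called higher at equal sums (1.13). Within each sample ATG101 stood at 3.16 ± 0.16 times ULK1 with DMSO and at 11.0 ± 1.06 times with BCT (SD, n = 3 each). A factor common to a whole sample cannot alter this ratio.

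The class III PI3K complex makes the lipid PI3P on the forming membrane. UVRAG, the subunit of its endosomal form (chromosome 11, 75526255 to 75855276), was at 2.97, 2.88 and 3.24 FPKM in DMSO samples and at 6.0, 6.17 and 6.51 with BCT. AMBRA1, a scaffold that links Beclin 1 to its regulators (chromosome 11, 46417964 to 46615675), was at 8.94, 8.92 and 9.27 FPKM in DMSO samples and at 16.7, 19.4 and 18.3 with BCT. In both genes all BCT samples lay far above the DMSO samples. UVRAG rose 2.06-fold (log2 fold change 1.02, standard error 0.08, limma adjusted p = 4.7e-06) and AMBRA1 rose 2.0-fold (0.99, standard error 0.07, adjusted p = 2.6e-06). UVRAG was not called at a pseudocount of 1 (0.84), and neither gene passed a test against the threshold of 0.85 itself (adjusted p = 0.132 and 0.138). None of the other 4 genes was called. The lipid kinase gene PIK3C3 was at 9.22, 9.29 and 8.37 FPKM in DMSO samples and at 8.84, 9.27 and 9.27 with BCT, with overlapping groups and a log2 fold change of 0.03 with a 95% confidence interval from -0.12 to 0.17. BECN1, which encodes Beclin 1, was at 0.18 and the regulatory subunit gene PIK3R4 at -0.16. ATG14, the subunit that directs the complex to autophagosome formation, was at 0.50, with 4.97 ± 0.13 FPKM in DMSO and 7.04 ± 0.01 in BCT samples (SD, n = 3 each). At equal FPKM sums BECN1 (0.95) and ATG14 (1.25) were called higher, ATG14 also without MIR6087 in the sum (0.88), PIK3C3 was at 0.79, and PIK3R4 turned to 0.60, or to 0.23 without MIR6087. PIK3C3 turned to -0.23 after correction for GC content and length (limma adjusted p = 0.0032). The exons of ATG14 share 20.8% of their bases with the opposite-strand gene FBXO34 (8.85 FPKM with DMSO and 9.0 with BCT), and those of BECN1 share 12.4% with CNTD1 (0.456 and 1.2 FPKM).

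Phagophore expansion needs PI3P-binding WIPI proteins, the lipid transfer proteins ATG2A and ATG2B and the membrane protein ATG9A. WIPI1 (chromosome 17, 66417089 to 66453654) was at 7.05, 7.49 and 6.88 FPKM in DMSO samples and at 3.01, 2.44 and 2.31 with BCT. WIPI2 was at 26.9, 26.1 and 26.7 FPKM in DMSO samples and at 15.6, 14.1 and 14.5 with BCT. All BCT samples of both genes lay below all DMSO samples. WIPI1 fell 2.76-fold (log2 fold change -1.44, standard error 0.10, limma adjusted p = 4.0e-06) and was not called at equal FPKM sums (-0.69). Its exons share 24.4% of their bases with the opposite-strand gene ARSG, which was at 2.87 FPKM with DMSO and 1.37 with BCT, and the library kit did not mark strand. WIPI2, the family member that recruits the conjugation machinery, was at -0.85, just short of the threshold, and was called at a pseudocount of 0.01 and without DMSO replicate 2 or BCT replicate 1. ATG2A at -0.02 had overlapping groups and turned to 0.74 at equal sums, ATG2B was at 0.75 and was called higher at equal sums with and without MIR6087 (1.5 and 1.14), and ATG9A was at -0.51, or 0.25 at equal sums.

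None of the 10 genes of the conjugation machinery was called in limma, and 6 had a positive and 1 a negative log2 fold change at an unadjusted p below 0.05. The FDR alone was passed by 7 of the 10, against 82.1% of the tested genes. This machinery includes the E1-like ATG7, the E2-like ATG3 and ATG10, the ATG12-ATG5-ATG16L1 complex and the ATG4 proteases that process ATG8 proteins. The largest differences were those of ATG16L1, which sets the site of lipidation, at 10.3, 10.2 and 8.63 FPKM with DMSO and 15.8, 16.9 and 16.9 with BCT, and of its partner ATG12, at 19.6, 18.5 and 18.9 FPKM with DMSO and 29.0, 31.9 and 32.5 with BCT. Both had their BCT samples above all DMSO samples, at log2 fold changes of 0.76 and 0.71, and both were called higher when the samples were rescaled to equal sums (1.53 and 1.47). ATG3 was at 0.45, ATG4B at 0.41, ATG4D at 0.40 and ATG4A at 0.36. The groups overlapped for ATG7 (0.16), ATG5 (0.12) and ATG4C (-0.10, or 0.66 at equal sums), and ATG10 was at -0.32, or 0.45 at equal sums. In all, 8 of the 10 were called higher at equal sums, a scaling at which 5609 of the 12729 tested genes were called higher. Besides ATG16L1 and ATG12 these were ATG3 (1.21), ATG4B (1.18), ATG4D (1.17), ATG4A (1.12), ATG7 (0.91) and ATG5 (0.88). ATG16L1 and ATG12 were also called without MIR6087 in the sum (1.15 and 1.10), as were 3389 of all tested genes. ATG7 shares 18.1% of its exon bases with VGLL4 (27.8 FPKM with DMSO and 16.5 with BCT), ATG4D 14.7% with KRI1 (20.5 and 21.6) and ATG10 6.87% with the ribosomal protein gene RPS23 (291 and 158).

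The ATG8 proteins, which coat the autophagosome membrane, moved unequally. GABARAPL1 (chromosome 12, 10365057 to 10375727) was at 8.59, 6.62 and 6.74 FPKM in DMSO samples and at 21.4, 28.4 and 27.3 with BCT. The lowest BCT sample was well above the highest DMSO sample. GABARAPL1 rose 3.51-fold (log2 fold change 1.80, standard error 0.13, limma adjusted p = 4.4e-06), and it was called under each alternative that tested it. MAP1LC3A, which encodes LC3A, was at 25.8, 24.8 and 26.6 FPKM in DMSO samples and at 42.9, 46.4 and 43.7 with BCT. Its groups were apart at a log2 fold change of 0.78, below the threshold, and MAP1LC3B, which encodes LC3B, the usual marker of autophagosomes, was at 0.62. Both were called higher at equal FPKM sums (1.55 and 1.39) and without MIR6087 in the sum (1.17 and 1.01), and MAP1LC3A also after correction for GC content and length (1.19). The counting could split reads between MAP1LC3B and its close copy MAP1LC3B2, which was listed at 0.962 FPKM with DMSO and 0.992 with BCT. In contrast, GABARAP was at 363, 328 and 359 FPKM in DMSO samples and at 283, 271 and 275 with BCT, a log2 fold change of -0.34, and GABARAPL2 was at -0.45. At equal FPKM sums these were 0.43 and 0.32, so the direction of GABARAP and GABARAPL2 depended on the scaling.

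The shares of the 5 genes in their summed FPKM are not altered by a factor common to a whole sample. GABARAP held 61.1% ± 0.49 of the sum with DMSO and 53.4% ± 1.28 with BCT, and GABARAPL2 held 26.1% ± 0.36 and 21.2% ± 0.77 (SD, n = 3 each). The share of MAP1LC3B went from 7.0% ± 0.25 to 11.9% ± 0.50, that of MAP1LC3A from 4.50% ± 0.12 to 8.56% ± 0.41 and that of GABARAPL1 from 1.28% ± 0.16 to 4.96% ± 0.73. No share overlapped between the groups, with GABARAP the most abundant and GABARAPL1 the least abundant in all 6 samples. The sum itself was 573 ± 27.6 FPKM with DMSO and 518 ± 4.93 with BCT.

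**Figure D2:**
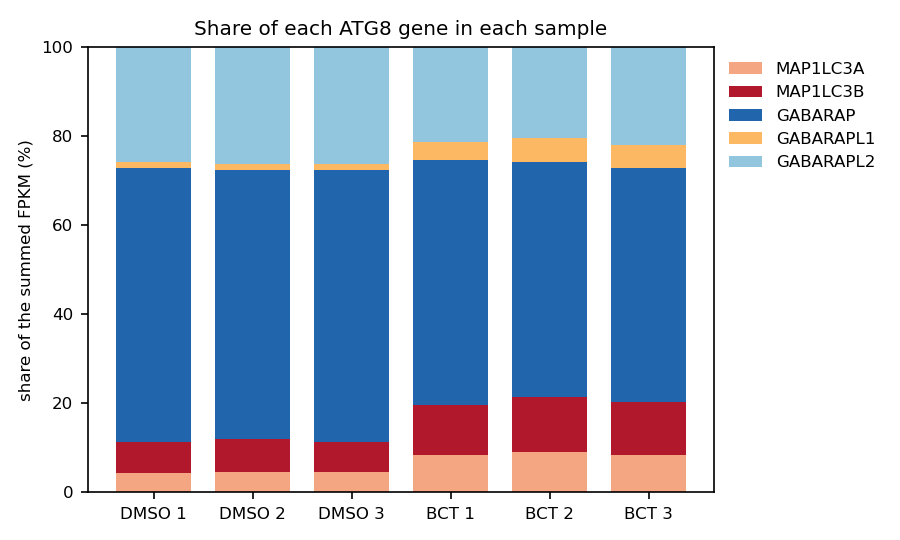
Share of each ATG8 gene in the summed FPKM of the 5 genes, as percent, in each DMSO and BCT sample. GABARAP takes the largest part of every bar, and the parts of MAP1LC3A, MAP1LC3B and GABARAPL1 are wider in the 3 BCT samples.

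The largest change of the 45 genes was in the cargo receptor gene SQSTM1. It encodes p62, which binds ubiquitinated proteins and ATG8 proteins and is itself degraded by autophagy. SQSTM1 (chromosome 5, 179233398 to 179265078) was at 63.3, 61.2 and 62.7 FPKM in DMSO samples and at 304, 352 and 351 with BCT. The DMSO samples lay within a few FPKM of each other and each BCT sample exceeded them several times over. SQSTM1 rose 5.38-fold (log2 fold change 2.42, standard error 0.06, limma adjusted p = 1.6e-07), more than 98.8% of all tested genes. Its exons share 1.39% of their bases with the opposite-strand gene MGAT4B, which was at 57.5 FPKM with DMSO and 28.6 with BCT.

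OPTN, which encodes optineurin, a receptor for damaged mitochondria and bacteria (chromosome 10, 13141449 to 13180308), was at 0.803, 0.652 and 0.742 FPKM in DMSO samples and at 2.42, 2.56 and 2.73 with BCT. It was the least expressed of the 45 genes, and all its BCT samples lay above its DMSO samples. OPTN rose 3.51-fold (log2 fold change 1.68, standard error 0.13, limma adjusted p = 6.9e-06). The other receptors were not called, with NBR1, a relative of p62, at 0.49, the ubiquitin-binding receptor TAX1BP1 at 0.49 and CALCOCO2, which encodes NDP52, at 0.02 with overlapping groups. NBR1 and TAX1BP1 were called higher at equal FPKM sums (1.26 in both) and without MIR6087 in the sum (0.88 and 0.87). SQSTM1 was at 1.52 ± 0.07 times the level of NBR1 with DMSO and at 5.79 ± 0.23 times with BCT (SD, n = 3 each).

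**Figure D3:**
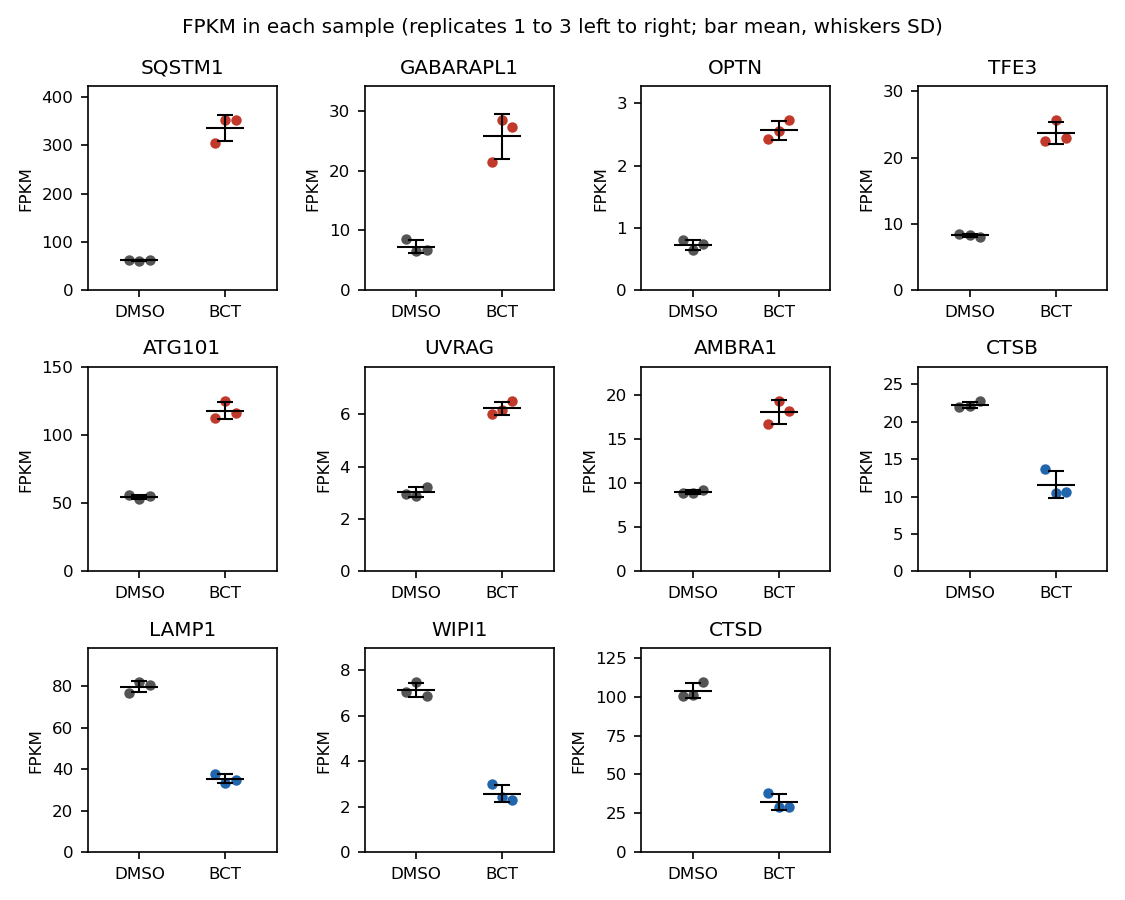
FPKM in each of the 3 DMSO and 3 BCT samples for the 11 genes called, with the mean and the SD as whiskers and each vertical axis starting at 0. The groups do not overlap in any panel, and BCT replicate 1, the leftmost BCT point, is the BCT sample nearest to DMSO in all 11.

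The pair of MiT transcription factors moved apart. TFE3 (chromosome X, 48886237 to 48900936) was at 8.51, 8.31 and 8.07 FPKM in DMSO samples and at 22.6, 25.6 and 22.9 with BCT. TFEB was at 5.65, 5.88 and 5.63 FPKM in DMSO samples and at 4.20, 4.57 and 4.09 with BCT. The groups were apart in both, with TFE3 higher and TFEB lower in the BCT samples. TFE3 rose 2.86-fold (log2 fold change 1.5, standard error 0.06, limma adjusted p = 6.0e-07). TFEB had a log2 fold change of -0.41 (standard error 0.07), which did not reach the threshold and became 0.34 at equal FPKM sums. TFE3 was at 1.45 ± 0.05 times TFEB with DMSO and at 5.53 ± 0.13 times with BCT (SD, n = 3 each). Both factors are controlled to a large part by their location in the cell, which RNA levels do not show.

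The lysosomal proteins comprised the membrane glycoproteins LAMP1 and LAMP2, the proteases CTSB, CTSD and CTSL, the glycosidase GLA and the calcium channel MCOLN1. CTSD, the aspartic protease cathepsin D (chromosome 11, 1773982 to 1785803), was at 101, 101 and 109 FPKM in DMSO samples and at 38.3, 29.3 and 29.4 with BCT. LAMP1 (chromosome 13, 113951554 to 113977987) was at 76.8, 82.0 and 80.4 FPKM in DMSO samples and at 37.9, 33.5 and 34.9 with BCT. In both genes the highest BCT sample lay at less than the lowest DMSO sample divided by 2. CTSD fell 3.21-fold (log2 fold change -1.69, standard error 0.10, limma adjusted p = 1.9e-06), and was called at equal FPKM sums too (-0.92, or -1.30 without MIR6087). LAMP1 fell 2.25-fold (-1.17, standard error 0.06, adjusted p = 1.0e-06) but was at -0.40 and -0.78 and not called under those scalings.

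CTSB, the cysteine protease cathepsin B, was at 22.0, 22.1 and 22.8 FPKM in DMSO samples and at 13.7, 10.5 and 10.6 with BCT. Here too the groups were apart, with BCT replicate 1 the highest of its group. CTSB fell 1.92-fold (log2 fold change -0.95, standard error 0.10, limma adjusted p = 3.5e-05). Its call was lost at equal FPKM sums with and without MIR6087 (-0.18 and -0.56), after correction for GC content and length (-0.84) and in a limma test against the threshold itself (adjusted p = 0.665). The remaining 4 were not called, at -0.81 for GLA, which encodes the alpha-galactosidase deficient in Fabry disease, -0.79 for MCOLN1, -0.41 for LAMP2 and -0.33 for CTSL. In the deposited values their BCT samples lay below all DMSO samples, as they did in 44.3% of all tested genes. At equal FPKM sums LAMP2 and CTSL were at 0.36 and 0.43, while GLA and MCOLN1 were at -0.05 and -0.02. GLA shares 8.99% of its exon bases with RPL36A, a ribosomal protein gene at 780.3 FPKM with DMSO and 443 with BCT.

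The contrast of SQSTM1 with LAMP1 and CTSD was visible within each sample. SQSTM1 was at 0.824, 0.747 and 0.780 times the FPKM of LAMP1 in the DMSO samples and at 8.04, 10.5 and 10.1 times in the BCT samples. Against CTSD it went from 0.602 ± 0.03 to 10.6 ± 2.32 times, and GABARAPL1 against GABARAPL2 from 0.0489 ± 0.007 to 0.234 ± 0.039 times (SD, n = 3 each). The groups were apart in all of these ratios. The pairs were chosen with the changes of the genes known, so the ratios describe the size of the contrast.

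**Figure D4:**
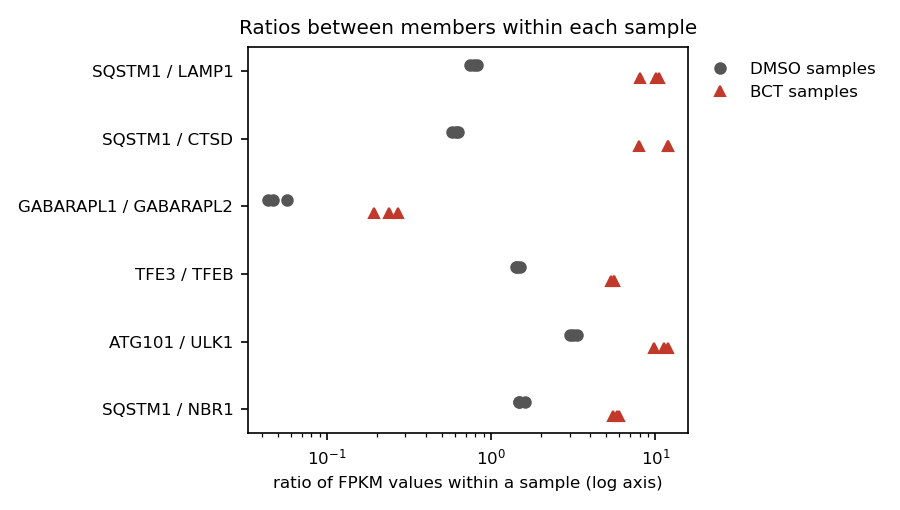
Ratios of FPKM between pairs of genes within each DMSO sample (circles) and BCT sample (triangles), on a log axis. SQSTM1 is below LAMP1 and CTSD in every DMSO sample and about 8 to 12 times above them in the BCT samples.

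A further 144 genes of the same pathway were listed by role, and 133 of them were tested. Of these, 7 rose (5.26% against 13.9% of all tested genes) and 35 fell (26.3% against 17.8%), with a median log2 fold change of -0.26. Of 39 genes listed as further lysosomal hydrolases, a list that also holds activators such as GM2A, 17 fell (43.6%) and 0 rose in limma. Their median was -0.73 (27 lower and 5 higher at an unadjusted limma p below 0.05). Of 23 further genes of the lysosomal membrane and of enzyme sorting, 9 fell (39.1%) and 1 rose, at a median of -0.40. Of 18 subunits of the V-ATPase, the pump that acidifies lysosomes, 3 fell (16.7%, against 17.8% of all tested genes) and 0 rose in limma. Their median was -0.28, with 13 lower and 3 higher at an unadjusted limma p below 0.05. Counts at that cutoff are high by default, since 82.1% of all tested genes passed even the FDR. At equal FPKM sums the hydrolases, the membrane and sorting genes and the V-ATPase had medians of 0.04, 0.37 and 0.48, all below the 0.72 of all tested genes. At this scaling 7, 2 and 0 of their genes were called lower and 6, 7 and 3 higher. Of all 12729 tested genes, 667 were called lower there and 5609 higher.

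**Figure D5:**
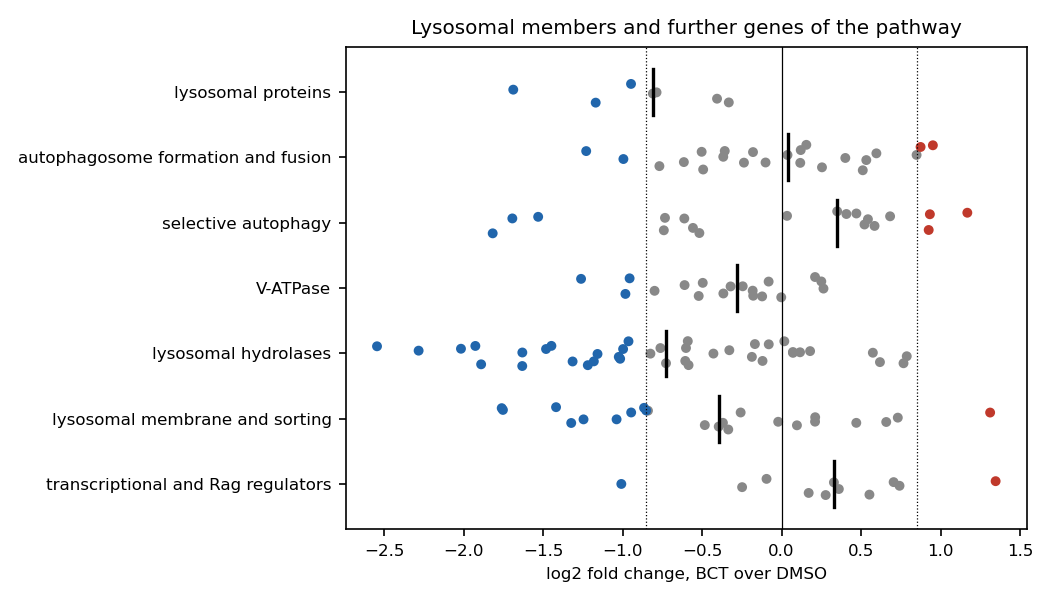
Log2 fold change, BCT over DMSO, of the 7 lysosomal proteins and of the tested genes of 6 further lists; each point is a gene, the thick bar is the median of a list, dotted lines mark the threshold of 0.85 and color marks genes called higher (red) or lower (blue); vertical scatter within a list has no meaning. The list of hydrolases, which also holds activators such as GM2A, reaches furthest left, down to -2.55 for GM2A, with 17 of 39 called lower.

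The largest falls in the list of hydrolases were those of GM2A, the activator of ganglioside breakdown, CTSA, the protective protein of other hydrolases, LIPA, the acid lipase that frees cholesterol, and the protease CTSF. GM2A was at 5.40, 4.51 and 4.74 FPKM in DMSO samples and at 1.06, 0.564 and 0.703 with BCT, a log2 fold change of -2.55. Its BCT mean was 0.775 FPKM, so it met the minimum of 1 FPKM through its DMSO values, which made a high DMSO value in part a condition for being tested. CTSA was at 33.4, 36.8 and 38.5 FPKM in DMSO samples and at 9.31, 6.34 and 6.72 with BCT, a log2 fold change of -2.28. LIPA was at -2.02 and CTSF at -1.93, and in all 4 genes the BCT samples lay far below the DMSO samples. GM2A, CTSA, LIPA and CTSF were also called lower at equal FPKM sums, at -1.83, -1.52, -1.26 and -1.16.

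Among membrane and sorting genes, NPC2, which carries cholesterol out of the lysosome, was at 147, 116 and 138 FPKM in DMSO samples and at 46.8, 34.1 and 37.6 with BCT, a log2 fold change of -1.76. LAPTM4B was at -1.75 and LAPTM4A at -1.42, both lysosomal membrane proteins, and GNPTG, a subunit of the enzyme that tags hydrolases with mannose 6-phosphate, was at -1.32. At equal FPKM sums NPC2 and LAPTM4B were called lower (-0.99 in both), and LAPTM4A (-0.65) and GNPTG (-0.56) were not. The gene that rose was CD68, a lysosomal glycoprotein best known from macrophages, from 2.50 ± 0.58 to 6.39 ± 1.63 FPKM (SD, n = 3 each). At 1.31 on the log2 scale it did not pass a limma test against the threshold itself (adjusted p = 0.121). The leukocyte markers PTPRC and CD14 were at most 0.036 and 0.387 FPKM in any sample. The V-ATPase genes that fell were ATP6AP2 (-1.26), ATP6V0E2 (-0.98) and ATP6V0E1 (-0.96), none of which was called at equal sums (-0.49, -0.22 and -0.19). ATP6V0E2 and ATP6V0E1 were not called without MIR6087 in the sum (-0.60 and -0.57) or against the threshold itself (limma adjusted p = 0.468 and 0.360) either, nor ATP6V0E1 after quantile normalization (-0.79).

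Of 19 further genes of selective autophagy, 3 rose and 3 fell (15.8% each, near the 13.9% and 17.8% of all tested genes). The mitophagy receptor BNIP3 fell from 67.0, 39.2 and 69.3 FPKM with DMSO to 16.4, 15.2 and 16.4 with BCT (log2 fold change -1.82), and its relative BNIP3L fell from 41.2, 30.7 and 38.5 to 12.1, 10.3 and 11.3 FPKM (-1.69). DMSO replicate 2 was the lowest of its group in both, yet far above the BCT samples. RTN3, a receptor for endoplasmic reticulum, fell too (-1.53), but was not called at equal FPKM sums (-0.76). The genes that rose were STBD1, a receptor for glycogen (1.17), WDFY3, a scaffold for aggregates (0.93), and SEC62, a receptor for endoplasmic reticulum (0.93). WDFY3 and SEC62 were not called after correction for GC content and length (0.68 and 0.73) or against the threshold itself (limma adjusted p = 0.670 and 0.467), nor WDFY3 at a pseudocount of 1 (0.80).

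Of 23 further genes of autophagosome formation and fusion, 8.70% rose and 8.70% fell, both below the shares of all tested genes. In this list 2 rose (SH3GLB1, a membrane-bending partner of the PI3K complex, at 0.95, and VPS11, a subunit of the tethering complexes for fusion, at 0.87) and 2 fell (ATG9B, the second ATG9 gene, at -1.23, and the lipid scramblase TMEM41B at -0.995). SH3GLB1 was not called after correction for GC content and length (0.80), nor VPS11 without BCT replicate 2 (0.84) or at a pseudocount of 1 (0.83). TMEM41B was not called at equal FPKM sums with or without MIR6087 (-0.23 and -0.61), nor ATG9B at equal sums (-0.50) or at a pseudocount of 1 (-0.83). Against the threshold itself, SH3GLB1, VPS11, ATG9B and TMEM41B did not pass in limma (adjusted p from 0.114 for ATG9B to 1 for VPS11). Of 11 transcriptional and Rag GTPase regulators, 1 rose and 1 fell (9.09% each, below the 13.9% and 17.8% of all tested genes). FOXO1, a transcription factor of autophagy genes, rose from 1.63 ± 0.06 to 4.32 ± 0.51 FPKM (log2 fold change 1.35). RRAGD, which ties MiT factors and mTORC1 to the lysosome, fell from 10.9 ± 0.75 to 5.38 ± 0.67 FPKM (-1.01, SD, n = 3 each). RRAGD was not called at equal FPKM sums with or without MIR6087 (-0.25 and -0.63) or against the threshold itself (limma adjusted p = 0.286).

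Against the E-boxes shown above, the lysosomal genes were set side by side by whether their window held CACGTG. Among the 63 tested genes of the lysosomal groups (members, hydrolases, membrane and sorting, V-ATPase) with a window, 9 of the 20 with CACGTG fell (45%) and 0 rose, at a median log2 fold change of -0.81, and 15 of the 43 without it fell (34.9%) and 1 rose, at a median of -0.48. Of all tested genes with a window, 21.1% of those with CACGTG fell against 17.0% of those without it. Among the 75 autophagy and regulator genes with a window, 1 of the 11 with CACGTG rose and 1 fell, and 10 of the 64 without it rose and 4 fell. These shares are descriptions and were not tested. LAMP1, CTSD and MCOLN1, with 6, 1 and 2 copies, were at -1.17, -1.69 and -0.79, and ATG14 and ATG3, with 1 and 2 copies, were at 0.50 and 0.45. None of the windows of SQSTM1, GABARAPL1, OPTN, TFE3, ATG101, AMBRA1 and WIPI1 held CACGTG.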

How the data were processed

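RNA-seq covered 3 DMSO and 3 BCT samples of 22RV1 cells (10 nM BCT, 24 h), and groups come from the sample labels. Per the labels and the methods of the study, libraries were made from total RNA with a TruSeq kit, reads were trimmed with Trimmomatic 0.38 and aligned to hg19 with HISAT2, and StringTie gave expression. CASAVA and HTSeq are also named in the submitters' processing notes, without a role. The authors deposited FPKM values for 26255 genes per sample. The gene annotation is not given in the sources used here.

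No rescaling was applied. The 12729 genes whose mean reached 1 FPKM entered a limma fit of log2(FPKM + 0.1), with moderated variances that follow a trend on the mean (limma 3.58.1, R 4.3.3) and Benjamini-Hochberg adjustment over all of them. Calls needed a log2 fold change beyond 0.85 in either direction and an FDR below 0.05. FPKM holds no counts, so depth is unknown and no count test was run. Nothing says that the samples came from separate cultures, so p-values measure the spread between these samples only. An exact test of 3 against 3 samples cannot give a p below 0.1 and was not used. The fit was tested on simulated data.

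The members and lists were chosen with earlier results of these data known. Any member could be named. In each role group the called members, or the 2 with the largest absolute fold change where fewer than 2 were called, are given sample by sample, and from each further list at most 4 called genes per direction are named. MIR6087, the marker genes and genes that overlap a member fall outside this rule. Positions are those of GENCODE lifted to GRCh37, since in the deposited annotation the span of 9 members is shared with other genes. Alternatives covered scaling, pseudocount, low-value filter, the FDR, the model of variances, a limma test against the 0.85 threshold, the replicate block and the removal of each sample. Protein sequences were not used here.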

Additional observations from a re-analysis of the deposited data

How the results depend on the processing

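The scaling had the largest effect. At equal FPKM sums, and then without MIR6087, 23 and 15 members were called higher and 1 and 2 lower, against 7 and 4 as deposited. Over all genes these were 5609 and 3389 higher and 667 and 1226 lower, against 1764 and 2263, and over the further genes 45 and 26 higher and 11 and 20 lower, against 7 and 35. The members' median of 0.116 on the log2 scale became 0.880 and 0.502 there, 0.153 with median-ratio scaling, 0.0245 with a minimum mean of 5 FPKM and 0.182 after GC and length correction, an alternative added after the data were seen. A test against the fold change threshold called 1033 genes higher and 1392 lower, and 2 and 22 of the further genes. Without a filter 2657 genes were called higher, and 1150 with a minimum mean of 5 FPKM.

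With 1 sample left out, 7 members were called higher each time and 4 to 5 lower, 1684 to 1932 genes higher and 2146 to 2488 lower, 6 to 8 further genes higher and 33 to 38 lower, and the members' median was 0.0743 to 0.139. GLA was called without BCT replicate 2 (-0.87).

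At equal sums the direction reversed for ULK1 (0.0759), ULK2 (0.256), ATG13 (0.558), PIK3R4 (0.603), ATG2A (0.738), ATG9A (0.254), ATG4C (0.661), ATG10 (0.446), GABARAP (0.430), GABARAPL2 (0.322), TFEB (0.343), LAMP2 (0.359) and CTSL (0.435). Without MIR6087 in the sum it reversed for ATG13, PIK3R4, ATG2A, ATG4C, ATG10, GABARAP and CTSL (0.179, 0.226, 0.365, 0.285, 0.067, 0.0482 and 0.054). Other reversals were those of ATG2A with median-ratio scaling, quantile normalization, GC and length correction and without DMSO replicate 2 or BCT replicate 3 (0.0186, 0.0206, 0.288, 0.0333 and 0.0357), of GABARAP with quantile normalization (0.0466), of PIK3C3 without DMSO replicate 3 and with the GC and length correction (-0.0199 and -0.235) and of CALCOCO2 without DMSO replicate 3 or BCT replicate 2 (-0.0039 and -0.0020). With 1 sample left out, ATG2A ran from -0.0668 to 0.0357, PIK3C3 from -0.0199 to 0.0544 and CALCOCO2 from -0.0039 to 0.0462. The cause was not tested. Of 1371 values of 69 genes under alternatives, 1271 kept direction and side of the threshold, 41 lost the call, 29 gained one and 30 reversed.

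The samples of both groups carry replicate numbers, and the methods of the study name no pairing. Deviations from the group means correlated by 0.116, 0.0328 and 0.0342 between same-numbered samples (mean of the others -0.0306). Of the 6 samples, 4 correlated best with their own number. These weak correlations do not settle whether same-numbered samples are pairs, and the main fit used no block. With the replicate number as a block, 7 members were called higher and 4 lower, 1767 and 2266 of all genes and 7 and 35 of the further genes.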

Other observations

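The annotation deposited with the values assigns genes to Gene Ontology terms, which were looked up after the results above were known. Of 107 tested genes with the term lysosome, 4 were called higher (3.74%, against 13.9% of all tested genes) and 37 lower (34.6%, against 17.8%), at a median log2 fold change of -0.59, and the 56 of them that stand in none of the lists used here had 3 called higher (5.36%) and 16 lower (28.6%), at a median of -0.51. The term lysosomal membrane had 65 tested genes, 4 called higher (6.15%) and 13 lower (20%), at a median of -0.15. The neighboring compartments differed in their medians, with -0.35 over 38 genes of the late endosome (10.5% called higher and 23.7% lower) and -0.05 over 81 genes of the early endosome (12.3% higher and 14.8% lower, near the shares of all tested genes). The term autophagosome had 11 tested genes, 3 called higher (27.3%) and 1 lower (9.09%), at a median of 0.62, all of them in the lists used here. Under the term autophagy stood 32 tested genes, 4 called higher (12.5%) and 5 lower (15.6%), at a median of 0.14. Both shares lay below those of all tested genes. For the term autophagic vacuole membrane, with 10 tested genes, 1 was called higher (10%) and 2 lower (20%), at a median of -0.39.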
